A study of Mus musculus with 97 samples.

Results

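The experiment asked what 3 h of auxin does to the transcriptome of late G1 cells in a mouse embryonic stem (ES) cell line whose Sox2 protein carries an auxin-inducible degron. It rests on 6 ribo-depleted total RNA libraries of the 97 libraries in the series: 3 from late G1 cells of the Sox2-AID line given 0.5 mM auxin for 3 h, and 3 from late G1 cells of the same line without auxin. Hoechst at 20 µM stained the DNA of both groups for 20 min before the sort, which used Hoechst and GFP levels. What GFP reports, whether the line is a single clone, and whether replicates came from separate cultures are not given in the sources used here, so p-values measure the spread between these samples, which may be technical. The medium held serum and LIF, and whether inhibitors of MEK and GSK3 were added for these cells is not stated. Early G1 and G2 cells of the same line, with and without auxin, gave the other 12 of the 18 RNA libraries, 3 in each of 6 groups. All genes with enough reads were described, 16011 of the 37620 in the count table.

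Sox2 is a transcription factor that binds DNA together with Oct4, the product of Pou5f1, at a composite site made of a Sox motif and part of an octamer, and with it keeps ES cells pluripotent. Around this pair stands a set of naive pluripotency factors, among them Nanog, Esrrb, Klf2, Klf4, Gbx2 and Nr5a2, which LIF and Wnt signals sustain while ERK signalling opposes them. A degron tag lets auxin direct the tagged protein to the proteasome, while the tagged gene can still be transcribed. Late G1 is the stage before DNA synthesis begins.

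Total counts were 37148365, 28539463 and 29581104 in the auxin-treated libraries and 35787324, 30135016 and 24841963 in the untreated ones. Replicates compared pairwise within their group gave a chi-square of 22.9 to 53.8 for each degree of freedom (genes with at least 20 counts), where counting error alone gives about 1. This value pools abundant and scarce genes, so it does not show which error sets the precision of a scarce gene. The untreated library numbered 3 stood apart, at 51.0 on the first principal component of the 6 libraries (33.6% of the variance) against -31.7 to 5.09 for the other 5, and the calls per list without it are given where their number changed. On the first component of the 18 RNA libraries untreated number 3 was at 31.1, 52.4 and 29.3 in early G1, late G1 and G2. Auxin-treated number 3 was at -6.4, 13.9 and -10.2. Late G1 libraries with the same number deviated together, so values from a fit with the replicate number as a block are given where they change a call or a count. Unless another fit is named, calls are from the fit without this block. ES cell markers were abundant in all 6 libraries, at a summed 3681, 3396 and 3612 CPM (counts scaled by TMM-adjusted library size) with auxin and 3773, 3674 and 3631 without. Fibroblast or feeder markers summed to between 22.4 and 25.4 CPM with auxin and between 21.7 and 26.4 without, 0 of 7 tested were called (1, higher, with the block), and Dcn, Lum, Postn, Col3a1 and Twist2 were too low to test.

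Sox2 messenger RNA stood at 330, 394 and 413 CPM in auxin-treated cells and 291, 393 and 389 CPM in untreated cells. The groups overlap, and the difference (0.08 ± 0.14 on the log2 scale, SE; edgeR adjusted p 0.869) did not pass. Auxin acts on the protein, so this transcript can check neither that Sox2 was lost nor which library had auxin. Pou5f1 likewise did not pass (log2 fold change 0.04 ± 0.13, edgeR adjusted p 0.942).

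With auxin, 79 genes (0.493% of those tested) rose and 84 (0.525%) fell in late G1. Naive pluripotency factors and receptors for LIF and Wnt signals were among the genes that fell, with Klf2 4.40-fold, Kbtbd11 3.39-fold, Gbx2 3.28-fold and Klf4 2.58-fold lower. Among the genes that rose were Arsi, 3.69-fold, Gata2, 4.35-fold, Ngfr, 2.10-fold, and Irf1, 1.94-fold higher. The genes that rose had a median log2 fold change of 0.91 (0.33 to 3.02), and 29 of them reached 2-fold. The genes that fell had a median of -0.72 (-0.33 to -3.66), and 21 of them reached 2-fold. The median over all tested genes was 0.004. In all 163 called genes (1.02% of those tested) the 3 auxin-treated libraries lay wholly above or below the 3 untreated ones, which 13.7% of all tested genes did. In bulk RNA, fewer cells of a type and less RNA per cell cannot be told apart. With the replicate block 404 genes rose (2.52%) and 548 fell (3.42%), 952 in all (5.95%), with all 163 among them. Of the 163 genes, 53 (27 that rose and 26 that fell) were called in each of the 6 fits that omitted 1 late G1 library, and many genes described below are not among them.

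**Figure D1:**
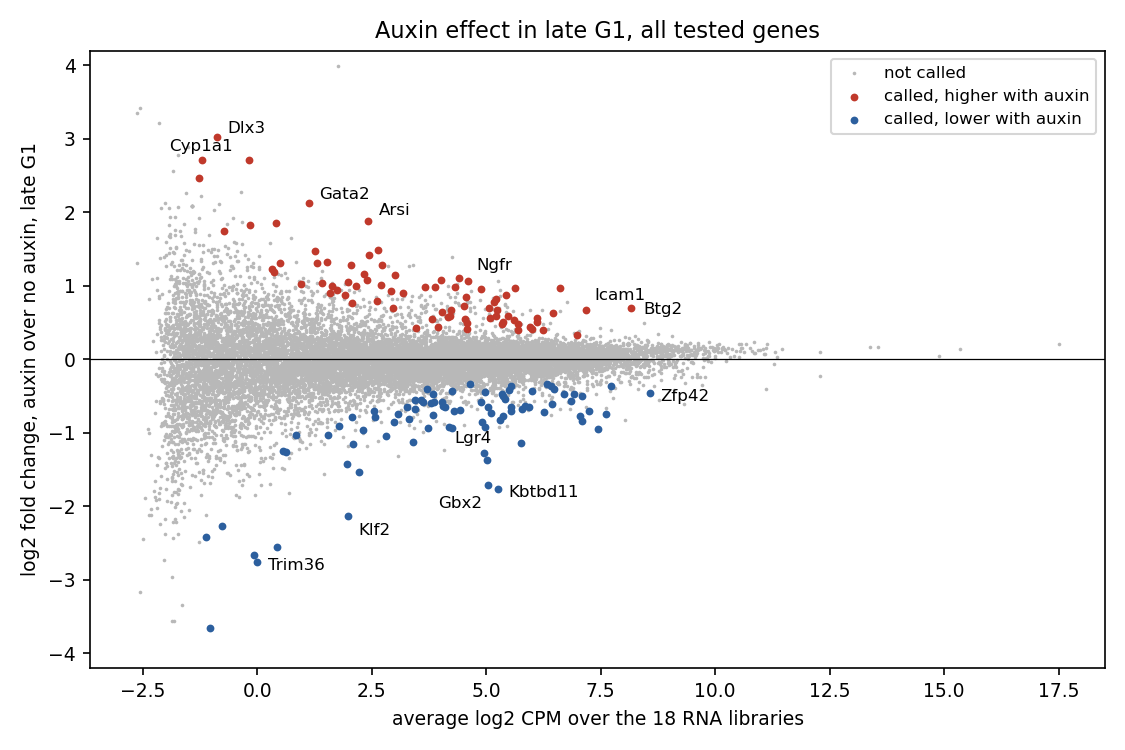
Log2 fold change of each tested gene in late G1 (auxin over no auxin) against its average log2 CPM over the 18 RNA libraries. The 79 called genes that rose (red) and the 84 that fell (blue) are few among 16011 genes, and 9 genes beyond a log2 fold change of 4.2 in either direction, none of them called, lie outside the plotted range.

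Of the 24 naive pluripotency genes listed, all of which could be tested, 9 fell, 0 rose and 15 did not pass, with a median log2 fold change of -0.40 against 0.004 for all tested genes. For this and every list below, the shares over all tested genes were 0.493% higher and 0.525% lower. With the block they were 2.52% and 3.42%. The lists were chosen with earlier results of these data known. Klf4, a zinc finger factor of the naive network, had 14.2, 20.8 and 13.6 CPM with auxin and 32.1, 49.3 and 44.1 CPM without (log2 fold change ± SE -1.37 ± 0.21, edgeR adjusted p 0.00247). Its relative Klf2 had 1.14, 1.71 and 0.784 CPM with auxin and 5.12, 6.61 and 4.25 CPM without (-2.14 ± 0.38, edgeR adjusted p 0.00737). Every auxin-treated library lay below every untreated one for both. Klf2 lost its call in 1 of the 6 fits that omitted a library (edgeR adjusted p 0.0608 without auxin-treated replicate 3), and Klf4 in none.

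Gbx2, a homeobox factor through which LIF signalling favours self-renewal, showed 16.2, 19.3 and 11.7 CPM with auxin and 49.0, 60.1 and 45.8 CPM without. The untreated values are each more than the highest treated one, and the log2 fold change was -1.72 ± 0.24 (edgeR adjusted p 0.00109). Nr5a2, an orphan nuclear receptor that can act on the Pou5f1 gene, had 16.1, 20.7 and 19.5 CPM with auxin and 29.3, 37.4 and 34.8 CPM without (-0.85 ± 0.11, edgeR adjusted p 0.000501). Tet2, an enzyme that oxidises methylated cytosine, had 103, 112 and 117 CPM with auxin and 166, 180 and 198 CPM without (-0.71 ± 0.10, edgeR adjusted p 0.000535). Jam2, a junctional adhesion molecule of ES cells, fell by 0.57 ± 0.07 on the log2 scale. These 4 genes kept their call whichever library was omitted.

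Nanog, the homeodomain factor of the naive network, changed less. It had 159, 162 and 159 CPM with auxin and 211, 212 and 197 CPM without, a tight pair of groups that differ by a log2 fold change of -0.37 ± 0.08 (edgeR adjusted p 0.0226). Zfp42, known as Rex1 and a marker of the naive state, had 308, 261 and 315 CPM with auxin and 414, 384 and 416 CPM without (-0.46 ± 0.09, edgeR adjusted p 0.0104). Fgf4, the ligand through which ES cells stimulate their own ERK pathway, had 83.3, 101 and 79.3 CPM with auxin and 120, 137 and 108 CPM without (-0.47 ± 0.11, edgeR adjusted p 0.0482). The 3 genes did not overlap between groups, but their calls were not firm in the fit without the block. Nanog lost its call in 5 of 6 left-out fits (adjusted p up to 0.111, without auxin-treated replicate 3). Fgf4 lost it in 4 (up to 0.246, without auxin-treated replicate 3) and Zfp42 in 2 (up to 0.0698, without auxin-treated replicate 2). With the block the edgeR adjusted p was 0.00015 for Nanog, 5.747e-06 for Fgf4 and 1.235e-05 for Zfp42.

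Among the 15 naive genes that did not pass, Esrrb, an orphan nuclear receptor, had 261, 340 and 305 CPM with auxin and 333, 429 and 362 CPM without. These groups overlap, since the second treated library exceeds the first untreated one, and the log2 fold change was -0.31 ± 0.12 (edgeR adjusted p 0.329, and 0.00164 with the replicate block). Klf5 (-0.90), Prdm14 (-1.06), Tbx3 (-0.46) and Tfcp2l1 (-0.25) also had negative log2 fold changes without passing, and Dppa3 (0.84), Sox15 (0.34), Dppa5a (0.16) and Fbxo15 (0.12) positive ones. With the replicate block 17 of the 24 passed, all lower, Klf5, Prdm14, Tbx3 and Tfcp2l1 among them (edgeR adjusted p 0.000548, 0.00293, 0.00374 and 0.00658). With 1 library omitted 6 to 8 passed (8 without untreated replicate 3), and on the authors' TPM the list's median was -0.54 with 2 genes called.

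General pluripotency genes changed in fewer members: 2 of 22 tested entries fell, 0 rose, and the median log2 fold change was -0.19. Of these, Zfp462, a zinc finger protein that acts on chromatin, fell by 0.72 ± 0.14 on the log2 scale and lost its call in 4 of 6 left-out fits (adjusted p up to 0.100, without auxin-treated replicate 1). Sall4 (-0.67, edgeR adjusted p 0.11) and Mycn (-0.57, edgeR adjusted p 0.059) did not pass. Lin28a (0.11), Dppa2 (0.03), Dppa4 (-0.03) and Trim28 (0.03) had log2 fold changes near 0 and did not pass. With the replicate block 8 passed, all lower, with Sall4 (edgeR adjusted p 0.000617) and Mycn (2.52e-05) among them, and without untreated replicate 3 the count was 1.

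Of the formative and primed genes, which mark the exit from the naive state, 2 of 24 tested entries rose and 0 fell, with a median of -0.07. Pou3f1, which encodes Oct6, had 23.7, 37.4 and 28.4 CPM with auxin and 12.7, 16.3 and 13.3 CPM without (1.08 ± 0.20, edgeR adjusted p 0.0102). The groups do not overlap, yet the call was lost in 3 of 6 left-out fits (adjusted p up to 0.0652, without auxin-treated replicate 2). Cldn6, a tight junction protein, had 13.8, 13.7 and 13.7 CPM with auxin and 11.3, 9.42 and 9.71 CPM without (0.43 ± 0.10, edgeR adjusted p 0.0481, lost in 5 of 6). Otx2 (-0.09), Fgf5 (0.62), Dnmt3b (0.20) and Sox3 (0.48), known markers of the same transition, did not pass. With the block 4 members were higher, Dnmt3b among them (edgeR adjusted p 0.0494), and 2 lower. The count was 0 without untreated replicate 3.

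**Figure D2:**
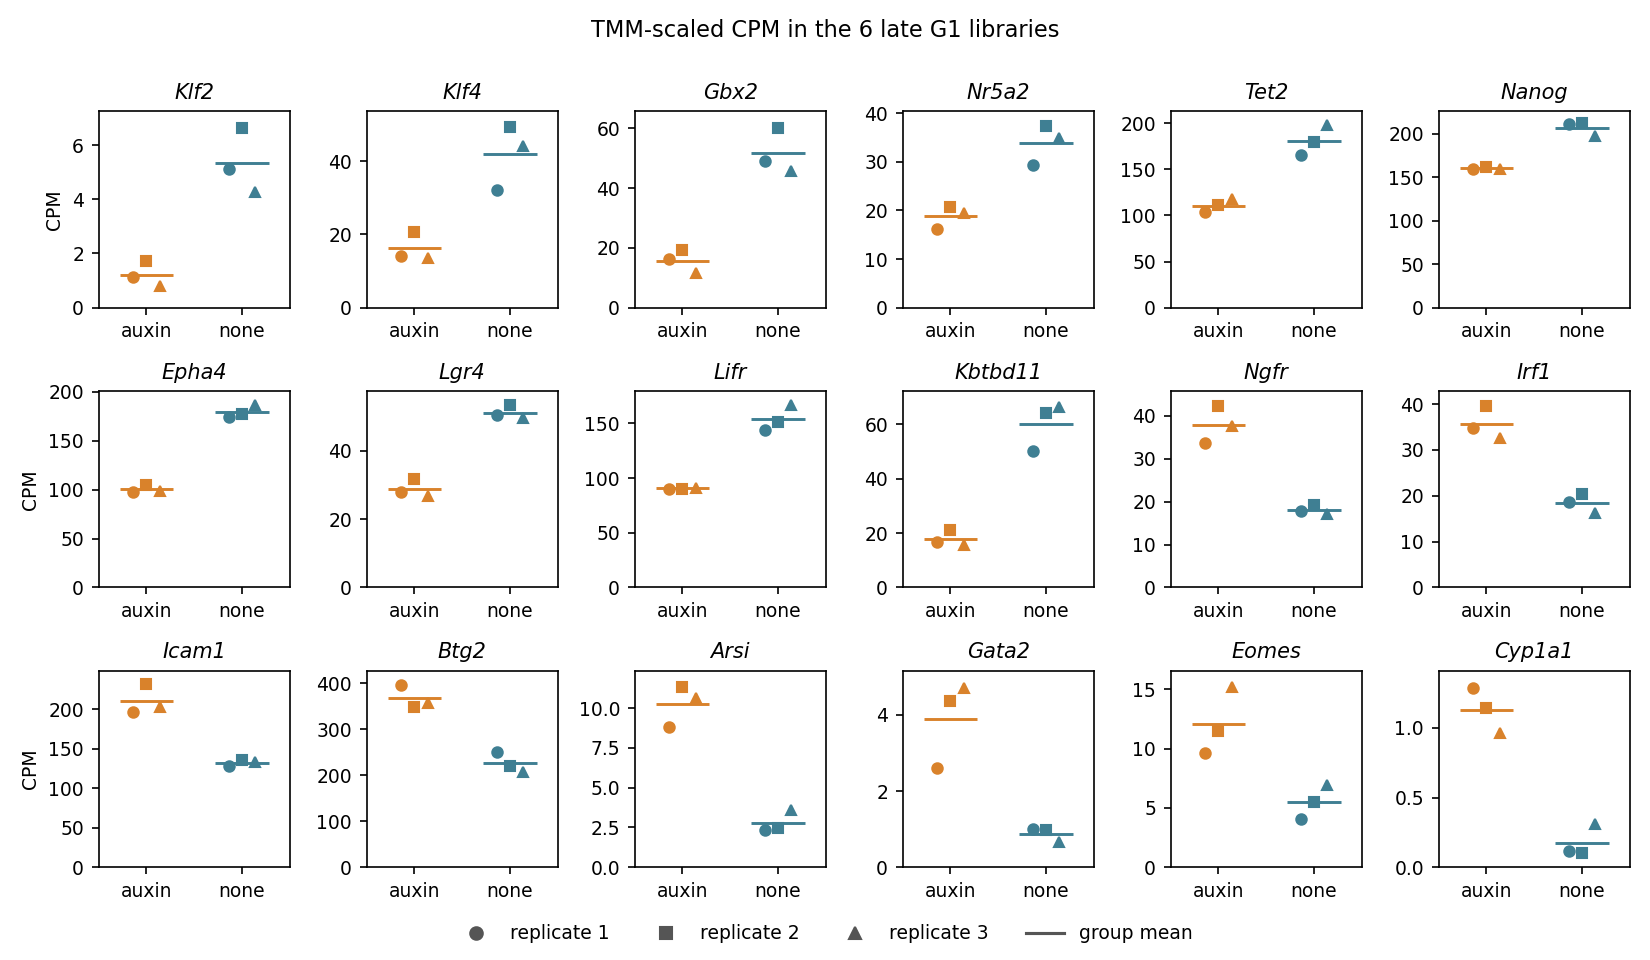
TMM-scaled CPM of 18 called genes in the 6 late G1 libraries, with auxin on the left and without on the right of each panel. Points are libraries, shaped by replicate number, lines are group means (n = 3), and axes start at 0. In every panel the 3 treated values lie wholly on one side of the 3 untreated ones, below them from Klf2 to Kbtbd11 and above them from Ngfr to Cyp1a1.

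Receptors and targets of LIF, the cytokine that holds mouse ES cells in self-renewal through Jak kinases and Stat3, moved in both directions. Of 19 tested genes of this list 2 rose and 4 fell, with a median of -0.03. Lifr, the ligand-binding receptor subunit, had 90.0, 90.3 and 91.2 CPM with auxin and 144, 152 and 167 CPM without. The treated values are nearly identical and all lie below the untreated ones (-0.77 ± 0.08, edgeR adjusted p 5.24e-05). Il6st, which encodes the shared signalling subunit gp130, had 35.5, 41.5 and 40.6 CPM with auxin and 48.4, 53.6 and 48.9 CPM without (-0.36 ± 0.08, edgeR adjusted p 0.0449), and its call was lost in all 6 left-out fits. The targets Gbx2 and Klf4, described above, were the other members that fell.

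Icam1, an adhesion molecule that Stat3 and other cytokine signals induce, rose to 196, 231 and 202 CPM with auxin, against 128, 135 and 133 CPM without. The groups are well apart (0.67 ± 0.08, edgeR adjusted p 0.000244), and the call held in every left-out fit. Junb rose by 0.51 ± 0.11. The kinases Jak1 (-0.03) and Jak2 (-0.03), Stat3 itself (-0.02) and the feedback inhibitor Socs3 (-0.04) had log2 fold changes near 0 and did not pass. Without untreated replicate 3, 1 member rose and 3 fell, and with the block 3 rose and 6 fell.

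In the Wnt list, 1 of 43 tested entries rose and 2 fell, with a median of 0.04. Lgr4, a receptor for R-spondins that raises the number of Wnt receptors at the surface, had 27.9, 31.9 and 26.7 CPM with auxin and 50.4, 53.5 and 49.7 CPM without. Its 2 groups are tight and far apart (-0.83 ± 0.08, edgeR adjusted p 8.42e-06). Fzd5, a Frizzled receptor, had 97.8, 127 and 107 CPM with auxin and 179, 229 and 232 CPM without (-0.95 ± 0.15, edgeR adjusted p 0.00308). Both kept their call in every left-out fit. The ligand Wnt3a was barely detected, at 0.874, 1.18 and 0.856 CPM with auxin and 0.287, 0.401 and 0.156 CPM without (1.75 ± 0.39, edgeR adjusted p 0.0358), and it lost its call in 5 of 6 left-out fits. The transcriptional readouts Axin2 (-0.25), Sp5 (-0.59) and Lef1 (0.63) and the effector Ctnnb1 (0.12) did not pass. With the block 7 members rose and 4 fell.

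Most genes of the FGF-ERK pathway did not pass: 0 of 20 tested entries rose and 1, Fgf4, fell, with a median of 0.07. The receptor Fgfr3 (0.93, edgeR adjusted p 0.059) and the ERK phosphatase Dusp4 (0.56, edgeR adjusted p 0.061) were just outside the threshold, and the feedback genes Spry2 (-0.09) and Dusp6 (0.12) and the target Etv4 (0.13) were near 0. With the block 3 members were higher, Fgfr3 (edgeR adjusted p 0.00697) and Dusp4 (0.00115) among them, and 2 lower. In the Nodal and BMP list, 1 of 26 rose: Id1, an inhibitor of helix-loop-helix factors and a BMP target, had 49.0, 55.5 and 54.9 CPM with auxin and 36.4, 37.0 and 41.1 CPM without (0.48 ± 0.09, edgeR adjusted p 0.0079). The groups do not overlap, and 1 left-out fit lost the call (adjusted p 0.0508 without auxin-treated replicate 3). Its relatives Id2 (0.29) and Id3 (-0.22) did not pass. With the block 6 members of this list were higher and 4 lower.

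Lineage genes that rose were expressed at low levels. In the trophectoderm list, which marks the outer layer of the blastocyst, 3 of 18 tested genes rose, 0 fell and the median was 0.34. Gata2, a zinc finger factor of trophoblast and blood, had 2.59, 4.35 and 4.71 CPM with auxin and 1.01, 0.969 and 0.663 CPM without. The lowest treated library is above the highest untreated one (2.12 ± 0.33, edgeR adjusted p 0.00199), and the call held in every left-out fit. Dlx3, a homeobox gene of placenta and skin, had 0.758, 1.43 and 1.43 CPM with auxin and 0.144, 0.134 and 0.156 CPM without (3.02 ± 0.60, edgeR adjusted p 0.0163). Eomes, a T-box factor of trophoblast and primitive streak, had 9.62, 11.4 and 15.2 CPM with auxin and 4.11, 5.48 and 6.91 CPM without (1.14 ± 0.26, edgeR adjusted p 0.0423). Dlx3 and Eomes each lost their call in 5 of 6 left-out fits (adjusted p up to 0.0878 without untreated replicate 2 and up to 0.208 without auxin-treated replicate 3). Cdx2, the first factor of the trophectoderm, had a log2 fold change of 1.24 and did not pass (edgeR adjusted p 0.078). The keratins Krt8 (0.44) and Krt18 (0.45) did not pass, and neither did Tfap2c (-0.56). With the block all 4 passed (edgeR adjusted p 0.0217 for Cdx2, 0.00738 for Krt8, 0.0387 for Krt18 and 0.0156 for Tfap2c), and the list had 8 members higher and 1, Tfap2c, lower. Without the block, the count stayed at 3 without auxin-treated replicate 1 and was 1 when any other late G1 library was omitted, untreated replicate 3 included.

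Of 11 tested mesoderm and primitive streak genes 3 rose and 1 fell, with a median of 0.59. Besides Eomes and Wnt3a, Meox1, a homeobox gene of somites, rose to 3.03, 4.50 and 3.99 CPM with auxin, against 0.747, 1.90 and 1.52 CPM without (1.47 ± 0.31, edgeR adjusted p 0.0235). Kdr, which encodes a VEGF receptor, had 1.63, 1.75 and 1.25 CPM with auxin and 2.41, 2.91 and 4.17 CPM without (-1.02 ± 0.23, edgeR adjusted p 0.0422). Without the block neither call was firm, with Meox1 lost in 4 and Kdr in 5 of 6 left-out fits. With the block the edgeR adjusted p was 0.00015 for Meox1 and 0.00693 for Kdr. Mixl1 (0.34) and Mesp2 (0.46) did not pass, and T, Gsc and Mesp1 were too low to test. Without untreated replicate 3, 0 members rose and 0 fell and the median was 0.39, and with the block 4 rose and 1 fell. No member of the neuroectoderm list (7 tested, median 0.03) or the primitive endoderm list (15 tested, median 0.25) was called, and under the block 2 neuroectoderm genes were called higher and 1 primitive endoderm gene in each direction. None of 15 tested Sox family entries was called (median 0.32): Sox8 had a log2 fold change of 1.27 (edgeR adjusted p 0.058), Sox9 of 3.21 (0.14), Sox3 of 0.48 and Sox17 of 0.74. With the block Sox8 (edgeR adjusted p 0.0184) and Sox9 (0.0314) were called higher and 1 entry of Sox4 lower (-0.36, 0.00883). Markers of parietal or visceral endoderm, summed, were at 168, 174 and 211 CPM with auxin and 147, 145 and 177 CPM without, with 0 of 4 tested called (1, higher, with the block), and their part in the result was not tested.

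**Figure D3:**
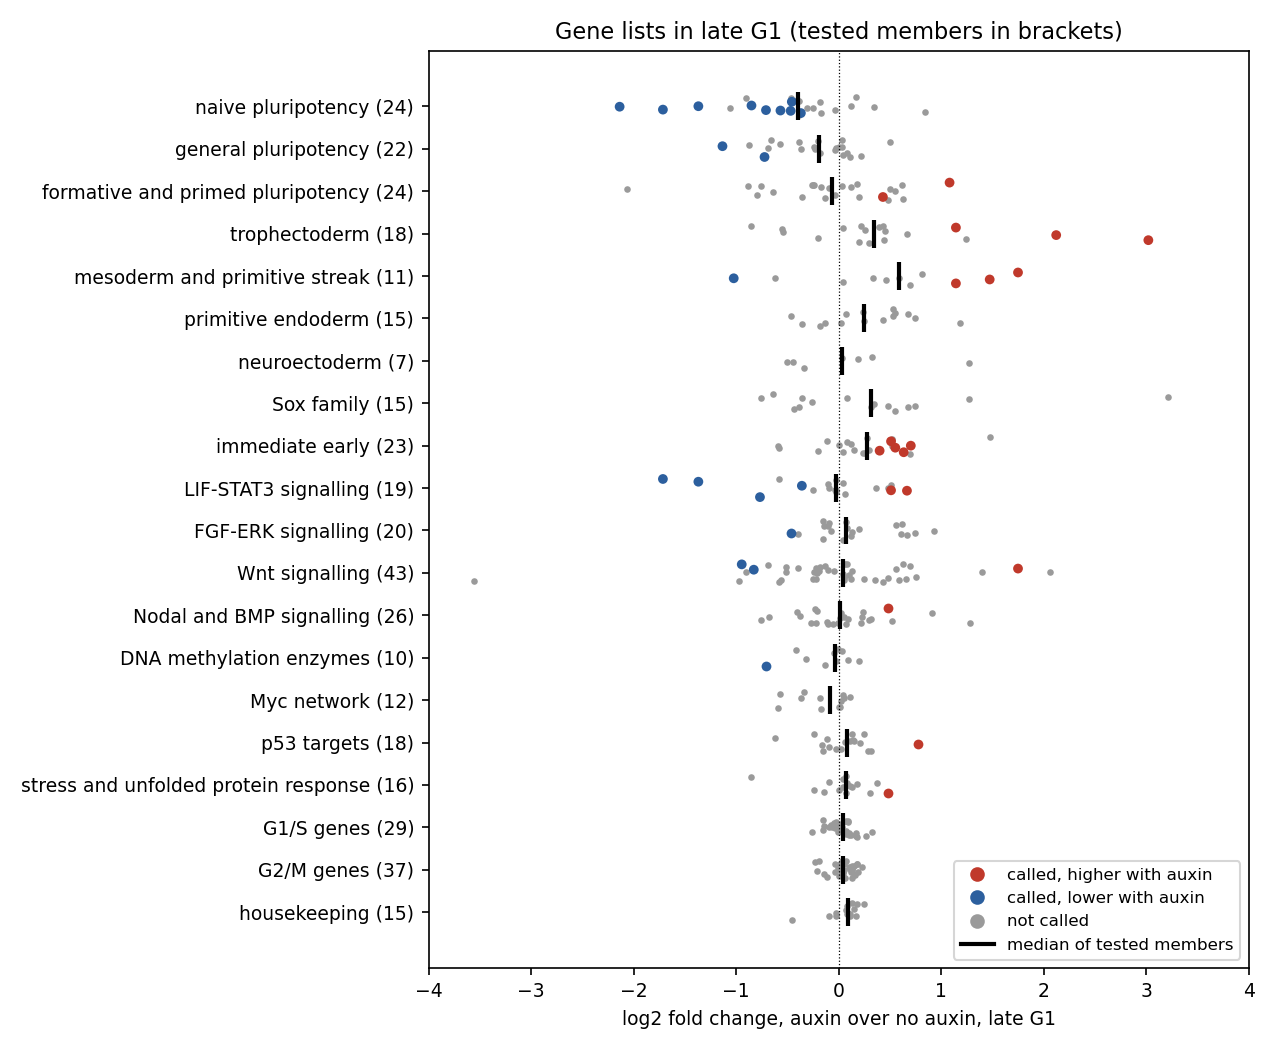
Log2 fold changes in late G1 of the tested members of 20 gene lists, 1 point a gene, with called genes in red (higher with auxin) or blue (lower with auxin) and the list's median as a black bar. The naive pluripotency list, with 9 genes lower and a median of -0.40, lies furthest left. The mesoderm (0.59), trophectoderm (0.34), Sox family (0.32), immediate early (0.27) and primitive endoderm (0.25) medians lie furthest right. The Sox family and primitive endoderm lists have 0 called genes.

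Immediate early genes, which cells switch on within minutes of a signal, had 5 of 23 tested members higher, 0 lower and a median of 0.27. Btg2, an antiproliferative gene that p53 and growth signals induce, had 398, 350 and 358 CPM with auxin and 250, 220 and 208 CPM without (0.70 ± 0.10, edgeR adjusted p 0.000891). Klf10, a TGF-beta-inducible repressor, had 88.9, 84.2 and 81.7 CPM with auxin and 58.5, 51.2 and 54.5 CPM without (0.63 ± 0.07, edgeR adjusted p 0.000134). The groups of both are apart by more than their own ranges, and both calls held in every left-out fit. The AP-1 components Junb (0.51 ± 0.11) and Jund (0.40 ± 0.09) and the gene Ier5 (0.55 ± 0.13) each lost their call in 5 of 6. Fos (0.70, edgeR adjusted p 0.23), Egr1 (-0.58), Jun (0.25) and Myc (-0.59), the best known members of the list, did not pass. Without untreated replicate 3, 2 rose. With the block 6 were higher, Fos among them (edgeR adjusted p 0.00178), and 1, Myc, lower (0.00548). On TPM the medians of the trophectoderm (0.05), mesoderm (0.01) and immediate early (0.01) lists were smaller, with 0 members of the 3 lists called. A pseudocount added to TPM pulls the log2 fold changes of scarce genes toward 0. Gata2, at 0.22 TPM with auxin and 0.06 without, had 0.20 at a pseudocount of 1, against 2.12 on counts. The median over all tested genes was -0.077 on that scale. Smaller medians on TPM therefore cannot show a smaller change of the scarce lineage genes.

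Cyp1a1, a cytochrome P450 that the aryl hydrocarbon receptor switches on and that indole compounds can induce, stood at 1.28, 1.14 and 0.963 CPM with auxin and 0.115, 0.100 and 0.312 CPM without. All 3 treated libraries are above all untreated ones (2.72 ± 0.38, edgeR adjusted p 0.00072), and the call held in every left-out fit. It was the only one of 8 tested genes of its list to be called: the receptor Ahr (-0.68) and its targets Cyp1b1 (0.28), Nqo1 (0.29), Tiparp (-0.19) and Ahrr (-0.01) did not pass. With the block Nqo1 was called as well (edgeR adjusted p 0.0313). Auxin-treated cells without the degron are not among the libraries used here, so changes due to the compound and changes due to loss of Sox2 cannot be told apart.

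Among interferon regulatory factors, 2 of 9 tested genes of the list rose, against 0.493% of all tested genes, and the list's median was -0.10. Like the others, this list was chosen with earlier results of these data known. Irf1 had 34.7, 39.6 and 32.6 CPM with auxin and 18.7, 20.3 and 16.2 CPM without (0.95 ± 0.10, edgeR adjusted p 4.68e-05). Irf5 had 3.32, 5.10 and 4.67 CPM with auxin and 1.81, 1.60 and 1.87 CPM without (1.30 ± 0.24, edgeR adjusted p 0.00852). Both are DNA-binding factors of innate immunity, and neither overlaps between groups. Stat2 (-0.14), Irf3 (-0.10) and Irf7 (-0.47) did not pass, and Isg15 and Ifit1, common interferon targets, were too low to test. Irf1 kept its call in every left-out fit and Irf5 lost it in 2.

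Ngfr, the p75 receptor for neurotrophins, had the smallest p of all genes that rose. It stood at 33.6, 42.3 and 37.6 CPM with auxin and 17.8, 19.2 and 17.1 CPM without, groups that lie far apart (1.07 ± 0.09, edgeR adjusted p 5.74e-06). Ntf5, a neurotrophin, rose as well, to 5.48, 5.71 and 6.38 CPM with auxin against 3.02, 2.84 and 2.93 CPM without (1.00 ± 0.15, edgeR adjusted p 0.00161). Arsi, an arylsulfatase, had 8.83, 11.3 and 10.6 CPM with auxin and 2.36, 2.44 and 3.59 CPM without (1.88 ± 0.26, edgeR adjusted p 0.000641). All 3 held in every left-out fit. The secreted semaphorins Sema3b (0.90 ± 0.18) and Sema3f (1.08 ± 0.25) rose among 28 tested semaphorin, plexin and neuropilin genes, and lost their calls in 5 and 4 of 6 left-out fits. The list's median log2 fold change was -0.15, with 9 members positive and 19 negative. With the block 3 genes of this list were higher.

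Other genes that rose and held in every left-out fit were of mixed function. Trim63, a ubiquitin ligase known from muscle, had 11.9, 9.88 and 9.62 CPM with auxin and 4.17, 3.64 and 3.43 CPM without (1.48 ± 0.22, edgeR adjusted p 0.00109). Mmp28, a matrix metalloproteinase, had 8.22, 10.3 and 11.6 CPM with auxin and 3.54, 3.67 and 4.02 CPM without (1.42 ± 0.18, edgeR adjusted p 0.00026). Camk2n1, an inhibitor of the kinase CaMKII, had 5.07, 4.53 and 6.34 CPM with auxin and 1.64, 2.34 and 2.61 CPM without (1.28 ± 0.18, edgeR adjusted p 0.0007). In all 3 the lowest treated value exceeds the highest untreated one. Zbtb46, a factor of dendritic cells (0.99 ± 0.11), Grhl3, a Grainyhead factor of epithelia (0.79 ± 0.13), Slc30a2, a zinc transporter (0.73 ± 0.09), and the phosphatase Dusp3 (0.59 ± 0.09) rose by smaller steps.

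Kbtbd11, a Kelch and BTB domain protein, had the largest fall among genes that held in every left-out fit, apart from the scarce Trim36 (-2.76 ± 0.41). It had 16.8, 21.1 and 15.5 CPM with auxin and 50.4, 64.2 and 66.3 CPM without. The lowest untreated library is above the highest treated one more than 2-fold (-1.76 ± 0.15, edgeR adjusted p 5.74e-06). Epha4, an ephrin receptor kinase, had 97.2, 105 and 98.5 CPM with auxin and 174, 177 and 187 CPM without (-0.84 ± 0.08, edgeR adjusted p 1.43e-05). Sirt1, a deacetylase that uses NAD, had 59.6, 64.0 and 64.6 CPM with auxin and 90.3, 99.5 and 98.1 CPM without (-0.61 ± 0.07, edgeR adjusted p 5.24e-05). Both pairs of groups are tight and separate. Paqr8, a membrane progesterone receptor (-1.16 ± 0.17), St8sia1, the sialyltransferase that makes ganglioside GD3 (-0.76 ± 0.10), and Ak4, a mitochondrial adenylate kinase (-0.70 ± 0.10), fell too and held in every left-out fit. Arid5b, a DNA-binding chromatin factor, fell by 1.28 ± 0.23 and lost its call in 3.

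Cell-cycle genes bear on whether the 2 sorted groups sat at the same point of the cycle. Of 29 tested G1/S genes and 37 tested G2/M genes 0 were called, with medians of 0.04 and 0.05 and ranges of -0.26 to 0.33 and -0.24 to 0.23 on the log2 scale. With the replicate block 2 G1/S genes and 0 G2/M genes were called, both higher. Replication-dependent histone genes summed to 8569, 16920 and 13940 CPM with auxin and 9826, 17230 and 12600 CPM without. The sum differed by replicate number more than by treatment, and 0 of 71 tested histone entries were called. These genes made up 0.791 to 1.71% of the counts in the late G1 libraries. Their share was 0.366 to 0.448% in early G1 and 0.289 to 0.619% in G2. Whether the late G1 sort took in cells that had begun DNA synthesis was not tested. In the Myc network (12 tested, median -0.09) and among housekeeping genes (15 tested, median 0.09) 0 were called, and with the block 2 and 1 were lower. In the p53 list 1 of 18 rose, Gdf15, a secreted stress cytokine (0.77 ± 0.17), and in the stress and unfolded protein response list 1 of 16, Ddit4, an inhibitor of mTORC1 (0.48 ± 0.11), and these lost their calls in 5 and 6 of 6 left-out fits. With the block 3 genes of the p53 list were higher and 1 lower. Without untreated replicate 3 the medians of the G1/S, G2/M and housekeeping lists were 0.00059, 0.0093 and 0.0089.

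The promoters of called genes were searched for the letters Sox2 and Oct4 are known to bind, in the 250 bases before each transcription start in RefSeq's GRCm38.p6 table. Of the 163 called genes 114 matched an entry, 54 that rose and 60 that fell. Their composite, CATTGT and ATGCAAA with 1 base of any kind between them and read on both strands like the other motifs, occurred in 2 of 32851 promoter entries (0.00609%), both of Nanog, whose proximal site is textbook knowledge. The Sox core CATTGT was found in 10.7% of entries, and among called genes in 10 (8.77%), 9 of which fell, Lifr among them. The octamer ATGCAAAT was found in 1.6% of entries and in 4 called genes (3.51%), Lgr4, Zfp42, Gadd45a and D4Bwg0951e, all of which fell. The composite overlaps the Sox core and the first 7 letters of the octamer. The XRE core TTGCGTG, which the aryl hydrocarbon receptor binds, was found in 0.925% of entries and in 0 called genes. Shares over all promoters count entries, while shares of called genes count genes, which can have more than 1 entry. The 2 kinds of share are therefore not on the same footing. A match is a description of letters, and counts this small stand as counts.

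The promoters of Nanog (chr6:122707239-122707488, plus strand), Lgr4 (chr2:109917397-109917646, plus strand) and Zfp42 (chr8:43307010-43307259, minus strand) are shown because these genes fell and hold the composite or the octamer, 5′ to 3′ up to the base before the start. Capitals mark the composite of Nanog, 75 to 62 bases before the start and on the reverse strand, and the octamers of Lgr4, 49 to 42 bases before, and Zfp42, 186 to 179 bases before, both on the reverse strand.
Nanog: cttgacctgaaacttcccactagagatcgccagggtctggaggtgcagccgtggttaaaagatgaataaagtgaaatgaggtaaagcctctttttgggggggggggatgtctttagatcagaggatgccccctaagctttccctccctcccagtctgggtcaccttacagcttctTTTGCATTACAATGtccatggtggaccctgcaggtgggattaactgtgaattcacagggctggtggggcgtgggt
Lgr4: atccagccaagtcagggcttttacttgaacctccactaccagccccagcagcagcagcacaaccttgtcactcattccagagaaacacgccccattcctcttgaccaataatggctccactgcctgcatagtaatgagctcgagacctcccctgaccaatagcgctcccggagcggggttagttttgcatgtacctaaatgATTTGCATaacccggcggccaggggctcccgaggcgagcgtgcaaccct
Zfp42: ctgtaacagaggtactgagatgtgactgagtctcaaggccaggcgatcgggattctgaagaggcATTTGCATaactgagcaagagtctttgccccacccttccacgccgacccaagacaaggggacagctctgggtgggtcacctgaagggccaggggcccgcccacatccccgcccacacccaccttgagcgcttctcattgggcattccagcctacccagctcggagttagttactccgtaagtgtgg

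The auxin effect in late G1 was set beside that in early G1 and G2 of the same line. By the same test 17 genes (0.106%) were called in early G1 and 107 (0.668%) in G2. All 17 early G1 calls were also called in late G1, which is 100% of the early G1 calls and 10.4% of the late G1 calls. With G2 78 calls were shared, 72.9% of the G2 calls and 47.9% of the late G1 calls, 44 of them higher and 34 lower. The 17 genes called in all 3 phases include Cyp1a1, Gata2, Arsi, Irf5, Ngfr, Irf1, Icam1, Klf10 and Btg2, which rose, and Kbtbd11 and D16Ertd472e, which fell. Of the 163 late G1 genes, 161 had the same sign in early G1 and 163 in G2, and 85 were called in late G1 alone. The untreated libraries numbered 3 stood apart in the same direction in all 3 phases, and their part in these shared signs was not tested. Sizes were larger in late G1 than in early G1 for 158 and than in G2 for 129, but the genes were chosen for their late G1 result, so sizes run high there.

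Whether the effect itself differed between phases was tested by the difference of the 2 log2 fold changes. Late G1 minus early G1 gave 0 called genes with edgeR, with 222 (1.39% of genes) at an unadjusted p under 0.05, and late G1 minus G2 gave 0 with 218 (1.36%). DESeq2 called 1 and 0. The one called by DESeq2 and by the replicate block (0.00625% of genes) was Lgr4, with a log2 fold change of -0.83 ± 0.08 in late G1, -0.27 ± 0.08 in early G1 and -0.56 ± 0.08 in G2. Its difference from early G1 was -0.56 ± 0.11 (edgeR adjusted p 0.787), -0.56 ± 0.09 with the block (adjusted p 0.0382) and -0.57 ± 0.11 by DESeq2 (adjusted p 0.00198). Without the untreated libraries numbered 3 the blocked fit called 4 genes, Lgr4 (-0.61), Kbtbd11 (-0.62), Ak4 (-0.60) and Lifr (-0.41), all with a larger fall in late G1 than in early G1. The naive genes Klf4 (difference -0.62 ± 0.30) and Klf2 (-0.88 ± 0.51) were not shown to differ between late and early G1 (edgeR adjusted p 1.00 for each).

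**Figure D4:**
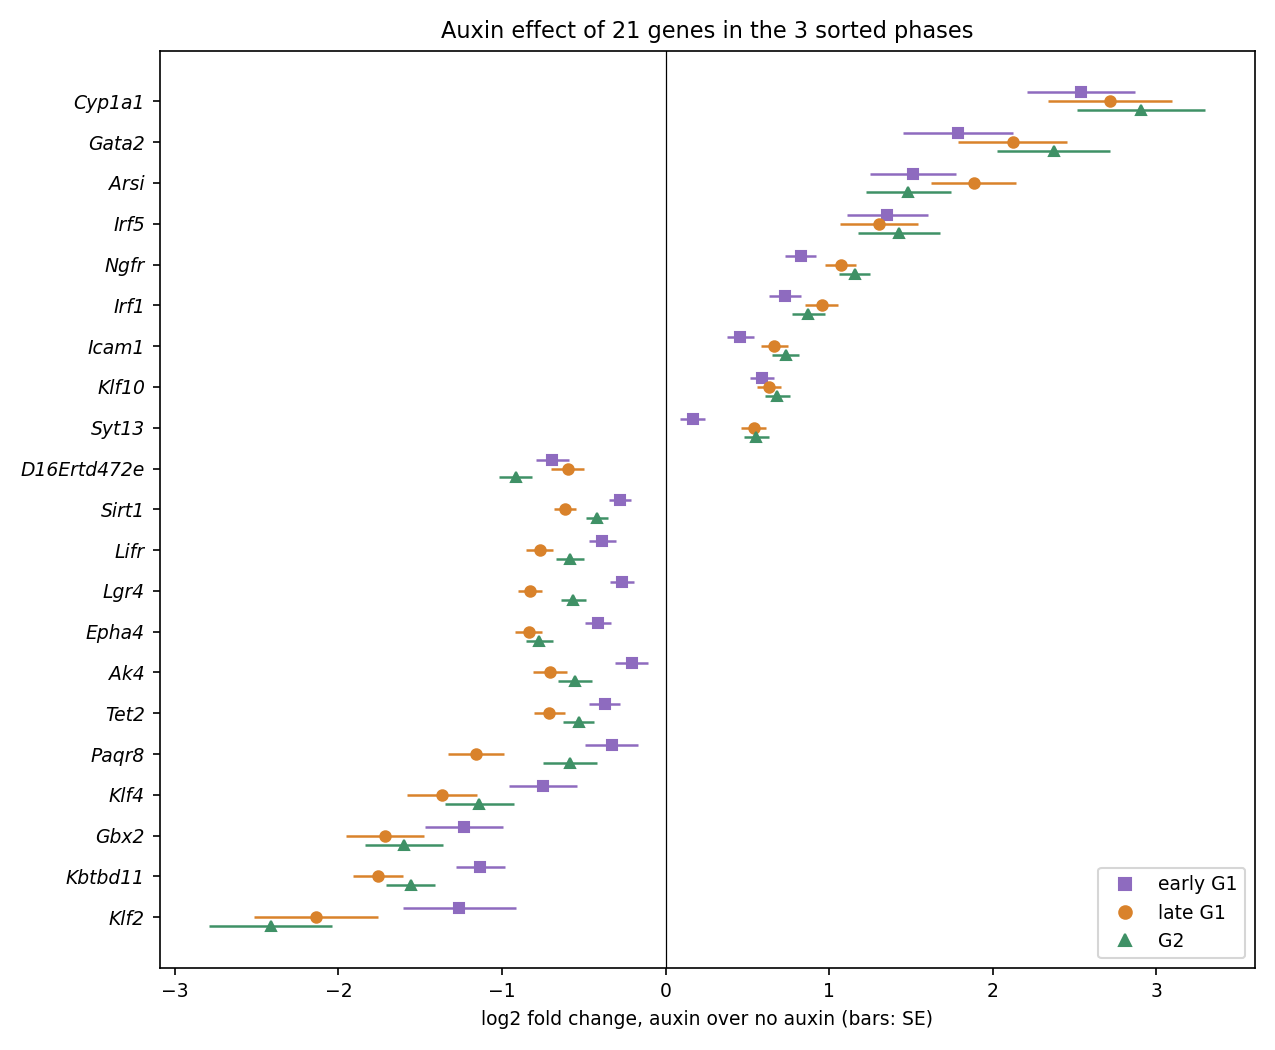
Log2 fold change, auxin over no auxin, of 21 called late G1 genes in early G1, late G1 and G2 (points; bars are SE from the edgeR fit of 18 libraries, 3 per group). Signs are the same in the 3 phases for every gene shown, and for Lgr4 the late G1 point lies at -0.83 and the early G1 point at -0.27.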

How the data were processed

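Expected counts per gene, deposited by the authors as whole numbers, and TPM to 2 decimals, also made by the authors, were the tables used. Per the submitters' processing notes, mm9, RSEM, STAR, MACS2 and Bowtie2 were used, in roles and versions not given in the sources used here. Whether counting used strand is not stated, so overlapping or antisense genes cannot be told apart. Groups came from the sample titles.

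Genes were filtered with filterByExpr (minimum count 10), TMM-scaled and tested with edgeR 4.0.16 (R 4.3.3) with a robust quasi-likelihood F test on group means of all 18 RNA libraries. A call is a Benjamini-Hochberg adjusted p under 0.05 over all genes, and SE is the log2 fold change over the square root of F. CPM are not per length, so levels are not compared between genes. DESeq2 1.42.0, limma 3.58.1 on log2 TPM, other filters and left-out libraries were alternatives. The test was tried on simulated data.

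Same-number treated and untreated late G1 libraries correlated at 0.223 to 0.291 in deviations from group means, against -0.216 to -0.012 for other pairs. Deviations from a group mean cancel within the group, so the negative values follow in part from the positive ones and are not separate evidence. Every same-number pair exceeded 0.1, so numbers were taken as pairing in the fits with the replicate block. The block over all RNA libraries also treats a number as shared between phases, which this check of late G1 did not cover. The main fit did not use this pairing. Named genes are Sox2, Pou5f1, Nanog, Esrrb, the 30 with the smallest p each way, the 10 with the largest change each way, called list members, and 5 each way by each difference between phases. Some genes that the rule names are not reported here. Members, lists and rules were chosen with earlier results of these data known.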

Additional observations from a re-analysis of the deposited data

Results flagged for a closer look

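Syt3, a synaptotagmin, had a log2 fold change of 0.77 in late G1, with 1.40, 1.43 and 1.25 CPM with auxin and 0.834, 0.735 and 0.819 CPM without. In early G1 its log2 fold change had the opposite sign, at -0.52 ± 0.20. It was called in neither phase. The difference of 1.28 ± 0.30 did not pass (edgeR adjusted p 1.00). Adam11 showed the same pattern, at 0.69 in late G1, with 2.71, 3.07 and 2.99 CPM with auxin and 1.44, 2.40 and 1.60 CPM without, and -0.60 ± 0.24 in early G1 (difference 1.29 ± 0.34, edgeR adjusted p 1.00). Both genes were near 1 to 3 CPM and were picked out of 16011 for this pattern.

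Lgr4 differed between phases in the fit with the replicate block, where late G1 minus early G1 was -0.565 ± 0.089 (edgeR adjusted p 0.0382). Without the block the same difference had an adjusted p of 0.787, and DESeq2 gave 0.00198.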

How the results depend on the processing

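All 163 calls remained under RLE scaling, DESeq2 and the replicate block, but their number depends on the model. With the replicate block 952 genes were called (404 higher, 548 lower). In the late G1 libraries alone 94 were called (53 higher, 41 lower), and 1373 with the block there (637 higher, 736 lower). DESeq2 called 319 (142 higher, 177 lower). With 1 late G1 library, or 1 replicate number of both groups, left out, calls ran from 34 to 119, 19 to 64 higher and 15 to 74 lower, the lowest without replicate 3. With untreated library 3 of each phase omitted, 116 were called (63 higher, 53 lower), and 736 with the block there (347 higher, 389 lower). The setting with the block there was chosen after seeing the data. On log2 TPM 9 genes were called, 6 lower (Kbtbd11, Lgr4, Epha4, Gbx2 and Zfp42 among them) and 3 higher (Mmp28, Arsi and Trim63), at a pseudocount of 1, and 10, 8 lower and 2 higher, at 0.1. TPM rescaled without the 3 most abundant RNAs, also chosen after seeing the data, gave 48 (9 higher, 39 lower). The median log2 fold change over all genes was -0.077, -0.165 and -0.122 on these 3 scales. The cause was not tested.

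For late G1 minus early G1, the block and DESeq2 called 1 gene each and the block without the untreated libraries numbered 3 called 4. Uncalled values changed sign: Sox2 was -0.12 and -0.12 on TPM, -0.10 on rescaled TPM and -0.043 to 0.17 with 1 library left out; Pou5f1 was -0.17 and -0.17 on TPM, -0.14 on rescaled TPM, -0.055 without the untreated libraries numbered 3, -0.015 with the block there, and -0.054 to 0.13 with 1 library left out; and Kitl, late G1 minus G2, was 0.00055 and 0.016 on TPM and 0.015 on rescaled TPM.

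Depth was 24841963 to 37148365 counts, and genes under about 1 CPM, Dlx3, Cyp1a1 and Wnt3a among them, rest on few reads.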

Other observations

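In the chromosomal order of the tested genes that could be placed, called genes followed each other in 10 pairs. Untested or unplaced genes may lie between them, and how many such pairs would arise without any link was not computed. Of 147 called genes and 13578 tested genes placed in the RefSeq gene table, the neighbours Meox1 and Sost, Sost and Dusp3, Nxph3 and Ngfr, Prrx2 and Ptges, Chst1 and Syt13, Trim63 and Slc30a2, and 1700020L24Rik and Mmp28 rose together. Ak4 and Dnajc6, Msc and Gm9947, and Sap30 and 2500002B13Rik fell together. Log2 fold changes in a pair ranged up to 1.47 for Meox1 and 2.71 for Sost, a gene not named by the rule and picked after its values were seen. Reads of overlapping neighbours cannot be told apart, since strand use in counting is not stated.

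Zinc finger genes were looked at after their values had been seen. Of 411 tested entries with symbols starting Zfp, Zkscan or Zscan, 8 fell and 0 rose, 285 had negative and 126 positive log2 fold changes, and the median was -0.09. Over all 16011 tested genes 84 fell (0.525%), 7873 had negative and 8138 positive log2 fold changes, and the median was 0.004. With the replicate block 41 of these entries were lower and 2 higher, against 548 (3.42%) and 404 (2.52%) of all genes. Zfp59 fell by 0.92 ± 0.14 on the log2 scale (edgeR adjusted p 0.00193). Zfp518b had 30.6, 31.9 and 28.9 CPM with auxin and 46.8, 49.9 and 46.7 CPM without (-0.65 ± 0.10, edgeR adjusted p 0.00112). The groups of both lie apart.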
